A study of Mus musculus with 8 samples.

Results

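The translation initiation and elongation factors are the proteins that load the ribosome onto mRNA and move it along. They were taken as the protein-coding genes whose mouse symbol starts with Eif or Eef, leaving out the eIF2 kinases Eif2ak1 to Eif2ak4, the Y-linked Eif2s3y, Eef2k and Eef1e1. This gave 59 of the 19826 genes listed in the deposited table. The RNA came from regulatory T cells (Treg), isolated by sorting CD4+ YFP+ cells out of the spleen and peripheral lymph nodes of untreated C57BL/6 mice. All mice were Foxp3 YFP-Cre/+, so Cre recombinase was made from the Foxp3 gene on 1 of the X chromosomes, and the animals also held Treg without Cre. The 4 WT libraries were Pdpk1 +/+ and the 4 libraries labelled Pdpk1 KO (KO-labelled in what follows) were Pdpk1 FL/FL, with both copies of Pdpk1 flanked by loxP sites. The ages of the mice and whether a library came from 1 mouse are not stated in the labels. The p-values therefore cover only the variation among these 8 libraries, which may be technical. The comparison addresses how loss of PDK1, the kinase that activates AKT and related kinases, changes the RNA of Treg.

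Initiation begins when eIF2 brings the initiator tRNA to the small ribosomal subunit. eIF3, eIF1 and eIF1A prepare that subunit, and the cap-binding complex eIF4F recruits the mRNA. eIF2B recharges eIF2 with GTP, and phosphorylation of eIF2 by the kinases of stress responses blocks that step. In elongation eEF1A delivers the aminoacyl-tRNAs, the eEF1B subunits recharge eEF1A, and eEF2 shifts the ribosome along the mRNA. In T cells the PI3K, AKT and mTOR pathway is known to set the rate of translation through the eIF4E-binding proteins and through LARP1. LARP1 binds mRNAs that start with a run of pyrimidines, the terminal oligopyrimidine (TOP) mRNAs, which include those of several elongation factors.

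Depth ranged from 17448095 to 26299577 recovered reads per library, and the 6 Treg and T cell markers summed to 54351 to 59663 normalized counts in every library. Single markers moved in opposite directions. Ikzf2, encoding the transcription factor Helios, fell from 9041 ± 940 to 4116 ± 379 (SD, n = 4 each, limma adjusted p = 4.45e-06). Il2ra, encoding CD25, rose from 15734 ± 914 to 24420 ± 2591 (limma adjusted p = 0.00114). Cd4, Cd3e and Ctla4 also had lower means, not past the threshold (log2 change -0.22, -0.39 and -0.27, limma adjusted p = 0.145, 0.0545 and 0.183). Pdpk1 summed over all its exons was 1923 to 2600 normalized counts in WT and 1656 to 2505 in the KO-labelled libraries (log2 change -0.17, 95% interval -0.45 to 0.11, limma adjusted p = 0.491), so this value does not check the labels. Foxp3 was 4418 to 6098 in WT and 4708 to 6340 in the KO-labelled libraries. Markers of macrophages moved with the groups. Of 19 such markers 17 had a higher mean in the KO-labelled libraries, 8 past the threshold, and Axl was past it in the other direction. Their summed level was 7680 to 9687 normalized counts in WT and 6570 to 13222 in the KO-labelled libraries. Without Ctsb and Axl, left out after their values were seen because they held most of the sum, it was 352 to 1972 and 1717 to 6170. These were also the only markers on that list with a lower mean in the KO-labelled libraries. Ctsb went from 6469 to 5222 and Axl from 1130 to 598. Both stayed in the mean log2 marker level used for the fits. Mertk, Fcgr1, Cd163, Marco and Spic were listed at 0 in at least 1 library. The B cell markers did not move together. Cd79b fell from 367 ± 73.1 to 165 ± 43.7 normalized counts (adjusted p = 0.00407). Cd79a went the other way, from 48.2 ± 13.3 to 83.2 ± 31.6, with overlapping groups and not past the threshold (log2 change 0.73, adjusted p = 0.258). Ms4a1 and Pax5 were at most 15.8 in any library. The CD8 T cell marker Cd8a was 2.25 to 31.3 in WT and 35.9 to 55.9 in the KO-labelled libraries, apart but not past the threshold (adjusted p = 0.195). The more abundant CD8 marker, Cd8b1, overlapped, at 266 to 492 in WT and 319 to 472 in the KO-labelled libraries (log2 change 0.19, adjusted p = 0.612). The part of these markers in the results was not tested beyond the fits on macrophage markers. WT replicate 2 and KO-labelled replicates 2 and 3 were highest in the mean log2 marker level.

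Some of the 5′ flanks of these genes are shown first, because the CACGTG letters (the E-box, a motif that Myc and related factors are known to bind) were frequent there. Of the 59 genes, 45 had an entry in RefSeq's promoter set (GRCm38.p6), read over the 250 bases before the annotated start. Of these, 11 genes (24.4%) held CACGTG, against 6.86% of 27025 genes with an entry and 9.93% of 9601 that were also tested here. The motif is its own reverse complement, so the strands are the same. Among members with an entry, 2 of 7 that rose (28.6%) and 9 of 38 that were tested but not past the threshold (23.7%) held it. The 40-base windows around it follow for the 2 that rose, Eef2 and Eif4a1. They are also shown for 4 of the 9 not past the threshold, Eif5a, Eif4g1, Eif4e and Eif3f. Those of Eif4h, Eif3k, Eef1akmt4, Eif5a2 and Eif1b are not shown, of which Eif5a2 and Eif1b had negative log2 changes (-0.17 and -0.13). Eif5a and Eif4e also held CACGTG at another site, not shown. Each window is written 5′ to 3′ on the gene's strand with the motif in capitals.
Eef2 (chr10:81176571-81176610, plus strand): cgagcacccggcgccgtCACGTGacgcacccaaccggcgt
Eif4a1 (chr11:69672590-69672629, minus strand): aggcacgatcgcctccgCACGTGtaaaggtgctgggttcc
Eif5a (chr11:69921438-69921477, minus strand): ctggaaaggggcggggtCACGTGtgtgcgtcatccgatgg
Eif4g1 (chr16:20672656-20672695, plus strand): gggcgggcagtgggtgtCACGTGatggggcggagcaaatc
Eif4e (chr3:138527187-138527226, plus strand): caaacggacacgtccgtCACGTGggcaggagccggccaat
Eif3f (chr7:108934330-108934369, plus strand): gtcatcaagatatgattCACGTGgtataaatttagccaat
The whole flank is given for Eef2, the gene with the most reads among those that rose. Its motif began 43 bases before the start.
Eef2 flank (chr10:81176381-81176630, plus strand): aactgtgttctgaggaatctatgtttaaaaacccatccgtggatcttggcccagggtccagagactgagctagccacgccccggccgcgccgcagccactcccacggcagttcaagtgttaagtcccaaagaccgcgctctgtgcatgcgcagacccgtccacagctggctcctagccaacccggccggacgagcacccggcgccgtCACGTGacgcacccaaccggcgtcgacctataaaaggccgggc
The other motif searched, TGATGNAA on both strands (part of the element bound by ATF4, a factor of the amino acid response), was in 1 of the 45 genes (2.22%), Eif2s3x, against 3.91% of all genes with an entry and 2.47% of those also tested. Neither match shows that a factor is bound.

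Translation factor genes rose in part and by small amounts. Of 58 tested members, 10 were higher in the KO-labelled libraries, 0 lower and 48 not past the threshold (limma, Benjamini-Hochberg adjusted p under 0.05 over 13847 genes). The 10 are 17.2% of the members, against 4.41% of all genes tested that were higher, 5.06% that were lower and 9.47% in either direction. At an unadjusted p under 0.05, 23 of 58 members were higher, against 10.8% of all genes, and 0 lower, against 12.2% of all genes. On recovered reads edgeR called 10 of 58 higher (4.33% of all genes) and DESeq2 15 of 58 (6.1% of all genes), both with 0 lower. After quantile normalization 8 were higher (4.53% of all genes), 7 of the 10 and Eef1akmt4. The 10 were the elongation factor genes Eef1b2, Eef1g and Eef2, the initiator tRNA genes Eif2a, Eif2s1 and Eif2s2, the eIF3 subunit genes Eif3e and Eif3b, and the cap-complex genes Eif4e3 and Eif4a1. Their log2 changes lay between 0.33 and 0.67, at most 1.59-fold. Over the 58 members the median log2 change was 0.21, against -0.01 over all genes tested, and 53 members (91.4%) had a positive change, against 49.1% of all genes. After quantile normalization 48 of 58 changes were positive and the median was 0.17. All 4 KO-labelled values lay above all 4 WT values for 15 members (25.9%), against 7.06% of all genes, and below them for 0 members, against 8.24% of all genes. In bulk RNA, fewer cells of a type and less RNA per cell cannot be told apart.

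The number of calls changed in the fits on macrophage markers and with single libraries. The mean log2 marker level was 4.04 to 6.80 in WT and 6.07 to 8.12 in the KO-labelled libraries. The covariate thus went partly with the groups, so group and marker level cannot be fully told apart. With the mean marker level as a covariate 1 member, Eif2a, was past the threshold (1.54% of all genes were higher), the median over the members was 0.14 and 44 of 58 changes were positive. With these 3 marker-rich libraries left out (WT replicate 2, KO-labelled replicates 2 and 3), which leaves 5, 0 members were past it (1.21% of all genes were higher), the median was 0.15 and 47 changes were positive. Leaving out 1 library at a time was read against the share of all genes that were higher in the same fit. The count was 5, 6, 12 and 3 of 58 members without WT replicates 1 to 4, against 3.81%, 3.62%, 3.57% and 2.81% of all genes. It was 10, 3, 5 and 5 of 58 members without KO-labelled replicates 1 to 4, against 4.25%, 3.05%, 2.85% and 3.99% of all genes. Blocking on replicate number gave 27, though no label ties same-numbered libraries together (8.98% of all genes were higher). Whether cells other than Treg had a part in these results was not tested beyond these fits.

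**Figure D1:**
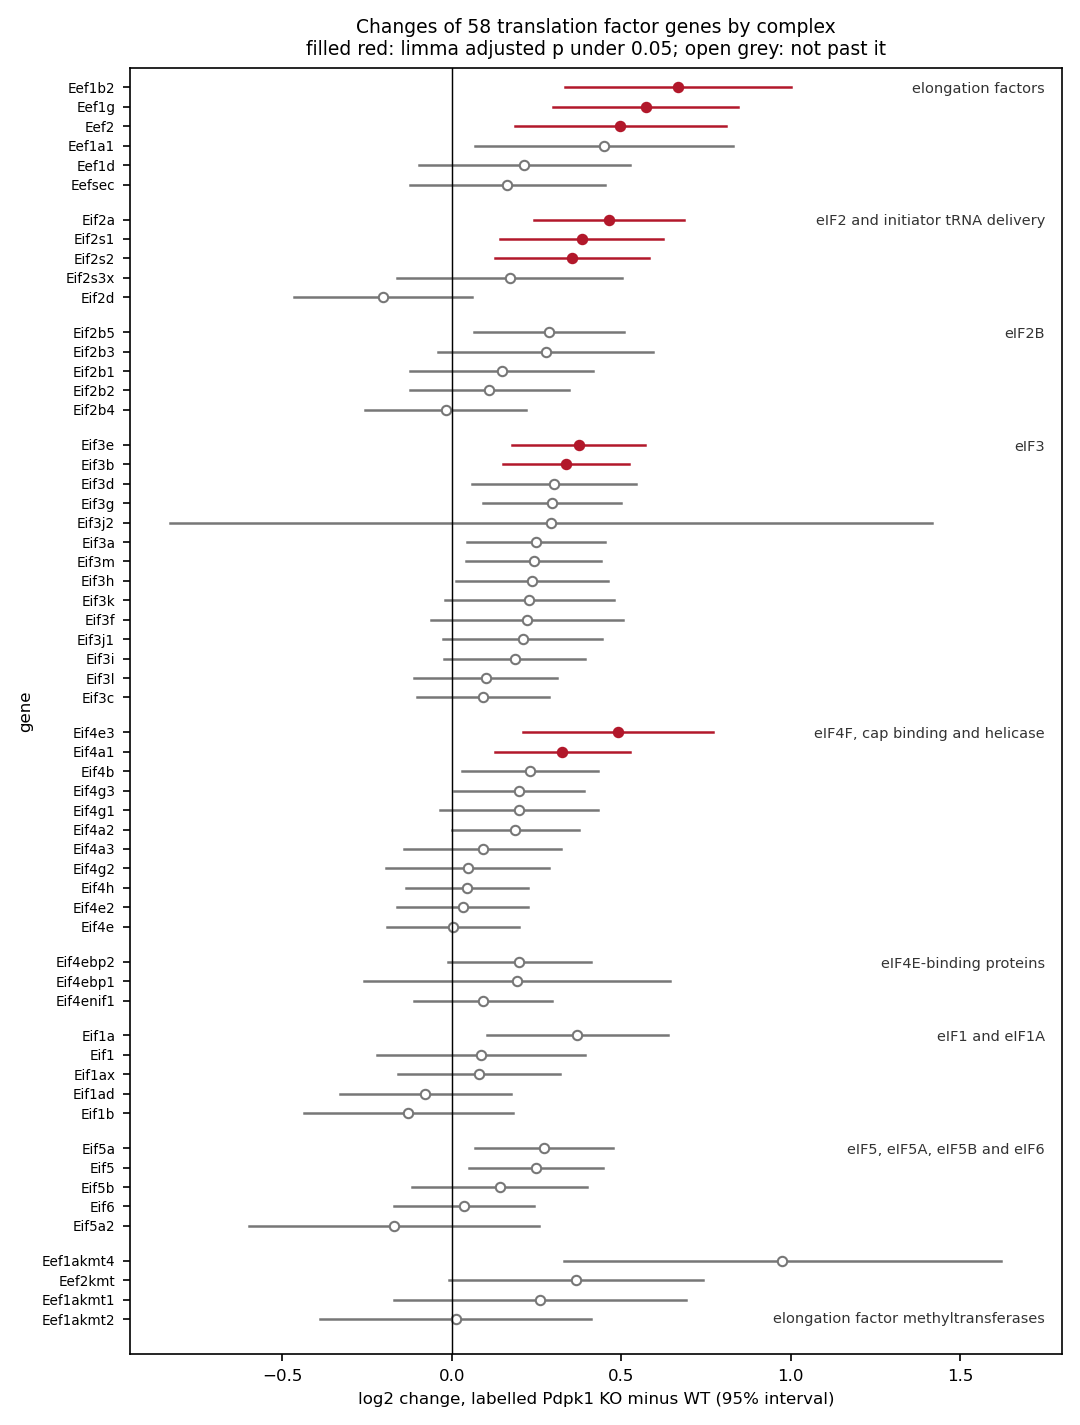
Log2 change of each of 58 tested translation factor genes (x axis, KO-labelled minus WT, log2(normalized count + 1) scale) by complex, with 95% intervals from limma, n = 4 libraries each. Filled red points are the 10 genes past the threshold, between 0.33 and 0.67, and most open grey points also lie right of 0.

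The elongation factors held the 3 largest of the 10 rises. Of 6 tested genes, 3 rose, 0 fell and 3 were not past the threshold, with a median log2 change of 0.47. Over all genes tested 4.41% were higher, the share to set beside this count and those of the other complexes. Differences between complexes were not tested. Eef1b2 encodes eEF1B alpha, the subunit that exchanges GDP for GTP on eEF1A (ENSMUSG00000025967, chromosome 1, 63176825 to 63180486, plus strand). WT replicates 1 to 4 held 16538, 23112, 26222 and 22834 normalized counts, against 26521, 41466, 36697 and 36020 for KO-labelled replicates 1 to 4. The groups did not overlap, though the lowest KO-labelled value stood just above the highest in WT. The log2 change was 0.67 ± 0.16 (SE, adjusted p = 0.0129), and 0.37 with the macrophage covariate (adjusted p = 0.374). Eef1g encodes the gamma subunit, which anchors that complex (ENSMUSG00000071644, chromosome 19, 8967041 to 8978479, plus strand). It went from 20159.8, 25179, 28098 and 22836 normalized counts in WT to 30592, 41159, 36911 and 34199.7 in the KO-labelled libraries, again without overlap. Its log2 change was 0.57 ± 0.13 (SE, adjusted p = 0.00974), and 0.36 with the covariate (adjusted p = 0.298). In both genes replicate 1 was the lowest library of its group.

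Eef2 encodes the translocation factor (ENSMUSG00000034994, chromosome 10, 81176631 to 81182498, plus strand) and is the gene whose flank is printed above. Its normalized counts were 121057, 121231, 132798 and 107749 in WT and 168368, 181604, 172886 and 157816 in the KO-labelled libraries. The 4 values of each group were close together and apart from the other group, yet the call was near the threshold (log2 change 0.50 ± 0.15 SE, adjusted p = 0.0447). The limma call was lost in 7 of 8 fits that left out 1 library, with changes of 0.44 to 0.54. After quantile normalization the change was 0.30 (adjusted p = 0.0613). On recovered reads edgeR (adjusted p = 0.00862) and DESeq2 (adjusted p = 8.85e-07) called Eef2. Eef1a1, the main eEF1A gene of most tissues and the most abundant member, stood in the same order. It had 252391, 272666, 291329 and 249021 normalized counts in WT and 347128, 393326, 371219 and 342194 in the KO-labelled libraries. The groups did not overlap, but the limma test was not past the threshold (log2 change 0.45, 95% interval 0.07 to 0.83, adjusted p = 0.14), while edgeR (adjusted p = 0.0181) and DESeq2 (adjusted p = 7.23e-06) were. Quantile normalization gave 0.00 for Eef1a1, which it gives by construction to the gene ranked highest in every library. Reads of Eef1a1 may be shared with its many processed copies, whose handling in the counting is not given in the sources used here. Eef1d, the delta subunit of the exchange complex, was at 0.21 (95% interval -0.10 to 0.52) and Eefsec, the selenocysteine factor, at 0.16.

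**Figure D2:**
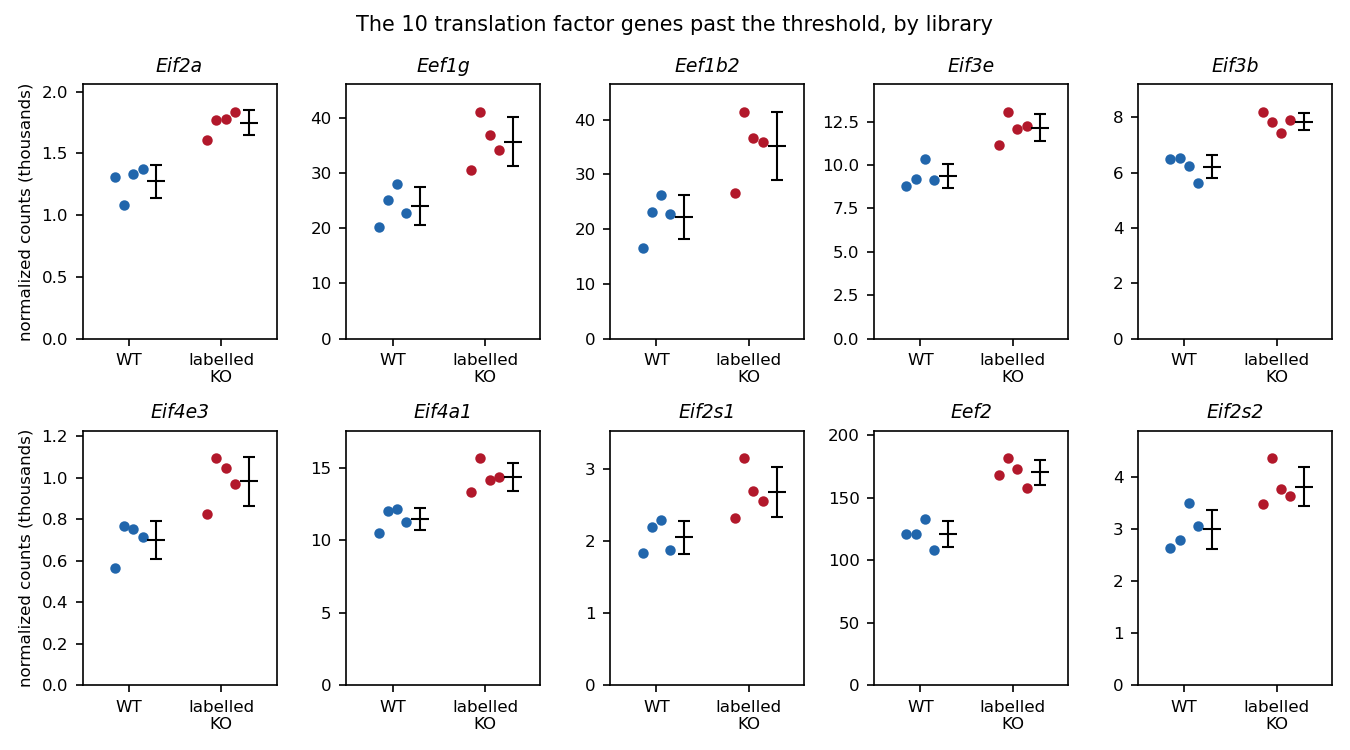
Normalized counts (y axis, from 0, on the scale its label gives) of the 10 genes past the threshold in each of 4 WT (blue) and 4 KO-labelled (red) libraries, with the mean and SD in black. The groups are apart in 9 panels and touch in Eif2s2, where the highest WT library (3490) is level with the lowest KO-labelled (3487).

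Together the 59 genes took 3.22 ± 0.11% of recovered reads in WT and 3.91 ± 0.14% in the KO-labelled libraries (SD, n = 4 each), a description with no test. Eef1a1 alone took 1.28 ± 0.04% and 1.62 ± 0.07%, and Eef2 0.581 ± 0.039% and 0.760 ± 0.038%. The members other than Eef1a1 and Eef2 took 1.36 ± 0.04% and 1.53 ± 0.06%.

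The genes that bring the initiator tRNA followed. Of the 3 eIF2 subunit genes, Eif2s1 (alpha, which the stress kinases phosphorylate) and Eif2s2 (beta) rose, and Eif2s3x (gamma, which binds GTP and the tRNA) did not pass the threshold. Eif2s1 (ENSMUSG00000021116, chromosome 12, 78861819 to 78887010, plus strand) had 1832, 2199, 2298 and 1879 normalized counts in WT and 2319, 3153, 2691 and 2559 in the KO-labelled libraries. The groups did not overlap, but WT replicate 3 stood just under KO-labelled replicate 1. Its log2 change was 0.38 ± 0.11 (SE, adjusted p = 0.044), 0.18 with the macrophage covariate (adjusted p = 0.6) and 0.34 after quantile normalization (adjusted p = 0.0617). Eif2s2 (ENSMUSG00000074656, chromosome 2, 154871410 to 154892935, minus strand) went from 2633, 2783, 3490 and 3053 to 3487, 4358, 3773 and 3633, the only 1 of the 10 whose groups overlapped. Its change was 0.35 ± 0.11 (SE, adjusted p = 0.0494), the call closest to the threshold, and edgeR did not call it (adjusted p = 0.0558). Eif2s1 and Eif2s2 each lost the call in 6 of 8 fits without 1 library. Eif2s3x, X-linked, spread from 1748 to 2472 in WT and from 1662 to 2860 in the KO-labelled libraries, with a change of 0.17 (95% interval -0.16 to 0.50).

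Eif2a encodes eIF2A, a separate single-chain protein that can deliver the initiator tRNA without eIF2, and was the member with the smallest adjusted p. It lies on chromosome 3, 58525821 to 58557501, plus strand (ENSMUSG00000027810). Normalized counts were 1305, 1079, 1328 and 1374 in WT and 1607, 1772, 1778 and 1836.5 in the KO-labelled libraries. The groups were apart, with the 4 KO-labelled values close together. The log2 change was 0.46 ± 0.10 (SE, adjusted p = 0.00945). It was 0.55 with the macrophage covariate (adjusted p = 0.046) and 0.36 with the 3 marker-rich libraries left out (adjusted p = 0.229). Eif2d, whose product acts in recycling and reinitiation, had the lowest change of all members, -0.20 (95% interval -0.47 to 0.06). None of the 5 eIF2B genes, which encode the exchange factor of eIF2, was past the threshold, with changes of -0.02 to 0.29. The groups of Eif2b5, the catalytic epsilon subunit, did not overlap, at 1058 to 1166 normalized counts in WT and 1212 to 1516 in the KO-labelled libraries (log2 change 0.29, adjusted p = 0.103). Eif2b2, the most abundant of the 5, was at 0.11.

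eIF3 is the largest initiation factor and scaffolds the small subunit. Its 14 tested genes had changes from 0.09 to 0.37, all positive, with a median of 0.24. Of these, 2 rose and 12 were not past the threshold. Eif3e (ENSMUSG00000022336, chromosome 15, 43250058 to 43282719, minus strand) had 8786, 9205, 10356 and 9159 normalized counts in WT and 11173, 13073, 12096 and 12254 in the KO-labelled libraries. Its log2 change was 0.37 ± 0.09 (SE, adjusted p = 0.0179), and 0.32 with the macrophage covariate (adjusted p = 0.24). Eif3b, a core subunit (ENSMUSG00000056076, chromosome 5, 140419328 to 140443360, plus strand), had 6503, 6524, 6227 and 5618 in WT and 8199.8, 7838, 7442 and 7888 in the KO-labelled libraries. The groups of both genes were apart. The change of Eif3b was 0.34 ± 0.09 (SE, adjusted p = 0.0229), 0.36 with the covariate (adjusted p = 0.143) and 0.40 with the 3 marker-rich libraries left out (adjusted p = 0.175), so its size did not shrink while the call was lost. Eif3e and Eif3b lost the call in 4 and 2 of 8 fits without 1 library. Eif3f and Eif3h, the subunits with the highest normalized counts, were at 0.22 and 0.24 with overlapping groups. Eif3c, another core subunit, was at 0.09 (95% interval -0.10 to 0.29). Eif3j2, a near copy of Eif3j1, had 145 reads over the 8 libraries, and its interval ran from -0.83 to 1.42.

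In the list of eIF4F, cap-binding and helicase genes, which is wider than the cap complex, 2 of 11 rose and 9 were not past the threshold. Their median was 0.19. Eif4a1 encodes the main RNA helicase of eIF4F (ENSMUSG00000059796, chromosome 11, 69666936 to 69672423, minus strand). Its normalized counts were 10502, 12037, 12127 and 11222 in WT and 13333, 15651, 14179 and 14343 in the KO-labelled libraries, with no overlap. The log2 change was 0.33 ± 0.09 (SE, adjusted p = 0.0396), 0.21 with the covariate (adjusted p = 0.47), and the call was lost in 6 of 8 fits without 1 library. Eif4e3, a divergent cap-binding relative of eIF4E (ENSMUSG00000093661, chromosome 6, 99625135 to 99666771, minus strand), had 566, 767, 755 and 716 in WT and 824, 1095, 1047 and 971 in the KO-labelled libraries. Its change was 0.49 ± 0.13 (SE, adjusted p = 0.0273), 0.23 with the covariate (adjusted p = 0.546), and the call was lost in 5 of 8 such fits. Eif4e itself, the cap-binding protein gene, stood at 1668 ± 102 and 1670.5 ± 58.4 normalized counts (SD, n = 4 each), a change of 0.00 with a 95% interval of -0.19 to 0.20. Eif4e2, Eif4h and Eif4g2 were also near 0, at 0.03, 0.04 and 0.05, and at -0.01, -0.01 and -0.15 after quantile normalization. Eif4b, the helicase cofactor, ran from 12398 to 14006 in WT and 14350 to 16791 in the KO-labelled libraries, apart but not past the threshold (0.23, adjusted p = 0.153). The scaffold genes Eif4g1 and Eif4g3 were at 0.20 each.

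The eIF4E-binding proteins, the brakes that mTOR releases, gave no call. Eif4ebp2 was by far the most abundant of the 3, with 9732 ± 673 normalized counts in WT and 11194 ± 1111 in the KO-labelled libraries (SD, n = 4 each, log2 change 0.20, 95% interval -0.01 to 0.41). Eif4ebp1 had 162 to 285 and 209 to 328 normalized counts (0.19, 95% interval -0.26 to 0.64). Eif4ebp3 was removed by the filter, with 69 reads in all and values of 2.08 to 12.9 and 3.29 to 13.5. Eif4enif1, which carries eIF4E into the nucleus, was at 0.09. The balance between related factors was compared within each library, which does not depend on scaling. The log2 ratio of Eif4a1 to Eif4a2 was 0.93 ± 0.15 in WT and 1.07 ± 0.16 in the KO-labelled libraries (SD, n = 4 each, difference 0.14 ± 0.11 SE, exact two-sided permutation p = 0.257, adjusted p = 0.386 over 3 ratios). The ratio of Eif4ebp1 to Eif4ebp2 was -5.45 ± 0.27 and -5.46 ± 0.24 (difference -0.01 ± 0.18 SE, exact permutation p = 0.971, the same after adjustment). The ratio of Eif4g1 to Eif4g2 was -1.22 ± 0.17 and -1.07 ± 0.10 (difference 0.15 ± 0.10 SE, exact permutation p = 0.143, adjusted p = 0.386). None passed the test. The smallest p this design allows is 0.0286 before adjustment, so 1 ratio alone could not pass after adjustment over 3.

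None of the 10 genes in the start-site and joining factor lists was past the threshold. The factors eIF1 and eIF1A scan for the start codon. Their list of 5 genes also held Eif1ad (-0.08), taken by its symbol. Changes in it ran from -0.13 (Eif1b) to 0.37 (Eif1a, adjusted p = 0.0809). Eif1 and Eif1ax, the most abundant of these, were at 0.09 and 0.08. Among eIF5, eIF5A, eIF5B and eIF6, Eif5a carries the hypusine residue that helps ribosomes past difficult peptide bonds. Its groups did not overlap, at 14655 ± 831 and 17723 ± 1307 normalized counts (SD, n = 4 each), but limma did not call it (0.27, adjusted p = 0.0903), while DESeq2 did (adjusted p = 0.0157). Eif5, the GTPase activator of eIF2, was at 0.25 (adjusted p = 0.116), Eif5b at 0.14 and Eif6 at 0.04. Eif5a2, the paralog of Eif5a, was at -0.17. Of 4 methyltransferase genes that modify eEF1A or eEF2, none was past the threshold. Eef1akmt4 had the largest change of all members, 0.97 (95% interval 0.33 to 1.62, adjusted p = 0.0557), from 60.9 to 147 normalized counts in WT and 130 to 222 in the KO-labelled libraries, with overlapping groups. Eef1akmt1 and Eef2kmt were at 0.26 and 0.37.

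**Figure D3:**
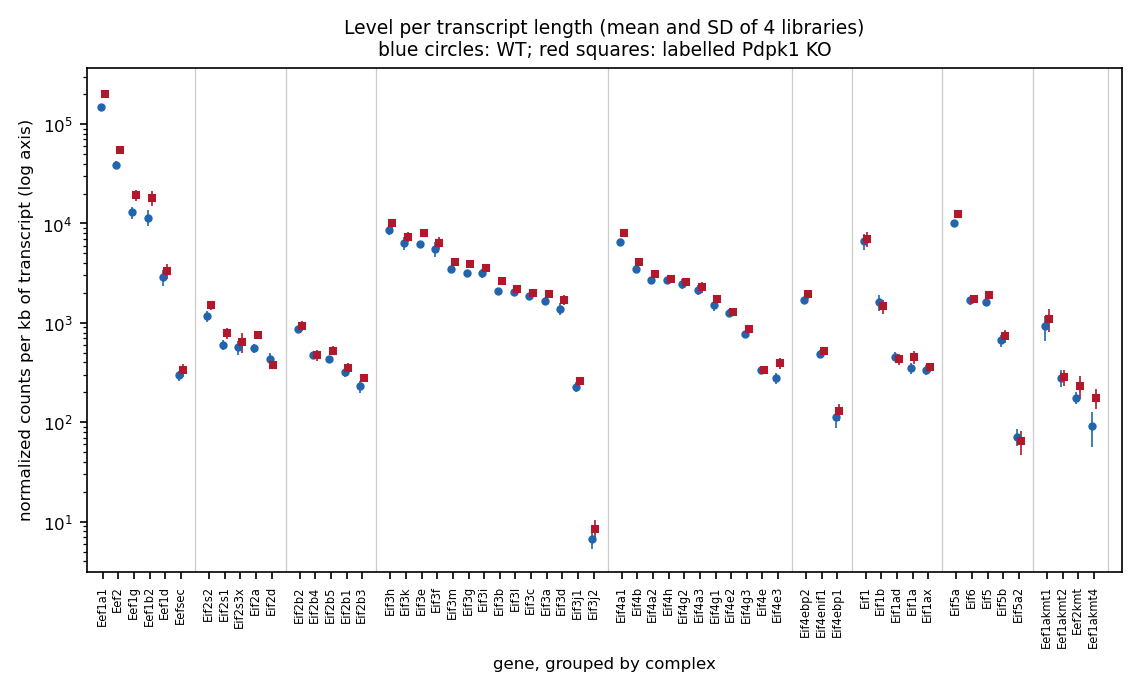
Normalized counts per kb of the principal annotated transcript (y axis, log scale) for 58 tested genes grouped by complex, mean and SD of 4 WT (blue circles) and 4 KO-labelled (red squares) libraries. Eef1a1 stands highest, at 148468 per kb in WT, and Eif3j2 lowest, at 6.76.

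Levels between genes were compared per kb of the principal transcript of GENCODE M21. In WT, Eef1a1 stood at 148468 ± 10956 normalized counts per kb and Eef2 at 39077 ± 3315 (SD, n = 4 each). The exchange subunits were lower, with Eef1g at 12912 ± 1813, Eef1b2 at 11437 ± 2094 and Eef1d at 2890 ± 548 per kb, and Eef1g and Eef1b2 did not differ beyond their spread. Among initiation factors, Eif5a (10198 ± 579 per kb), Eif3h (8608 ± 897), Eif1 (6622 ± 1178) and Eif4a1 (6467 ± 431) were highest. The eIF3 genes ranged in WT from 1389 per kb for Eif3d to 8608 for Eif3h, leaving out the loosely bound eIF3j subunits. Eif4e stood at 334 per kb, against 1683 for its inhibitor Eif4ebp2 and 1514 for its partner Eif4g1. The eIF2B genes had 229.8 to 865 per kb and the eIF2 subunit genes 569.5 to 1176. These levels rest on 1 transcript length a gene, which may not be the length made in Treg.

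Genes with TOP mRNAs were described apart, from a list of 13 members written from general knowledge. Of these, 5 rose (Eef1b2, Eef1g, Eef2, Eif2a and Eif3e), 0 fell and 8 were not past the threshold, 38.5% against 4.41% of all genes tested. All 13 had positive changes, from 0.10 to 0.67, with a median of 0.25, which was 0.26 with the macrophage covariate and 0.18 after quantile normalization. Among the other 45 tested members 5 rose (11.1%), and the median was 0.19, or 0.08 with the covariate. Whether the lists differ was not tested. The list held the 4 members with the highest normalized counts, Eef1a1, Eef2, Eef1g and Eef1b2.

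Of 51 other genes of translation and its control, all tested, 5 rose, 0 fell and 46 were not past the threshold, 9.8% against 4.41% of all genes. At an unadjusted p under 0.05, 12 of 51 were higher, against 10.8% of all genes, and 1 of 51 lower, against 12.2% of all genes. edgeR called 5 of 51 higher, against 4.33% of all genes, and DESeq2 7 of 51, against 6.1% of all genes, both with 0 lower. Larp1, encoding the TOP mRNA-binding protein, went from 8272, 9338, 9447 and 8575 normalized counts in WT to 13304, 13395, 11976 and 12060.2 in the KO-labelled libraries (log2 change 0.51 ± 0.09 SE, adjusted p = 0.00204). Eef2k encodes the kinase that inhibits eEF2. It had 378, 417, 381 and 444 in WT and 641, 662, 585 and 691 in the KO-labelled libraries (0.67 ± 0.13 SE, adjusted p = 0.00303). Dph5, an enzyme of the diphthamide residue on eEF2, went from 765 ± 110 to 1133 ± 86.2 (SD, n = 4 each, 0.57, adjusted p = 0.00647). Eef1e1, a protein bound to the tRNA synthetase complex, went from 600.4 ± 38.2 to 854 ± 70.7 (0.51, adjusted p = 0.0101). The recycling ATPase gene Abce1, named after its values were seen, rose by a log2 change of 0.35 (adjusted p = 0.0305). On this list 6 of 51 genes (11.8%) had all KO-labelled values above all WT values, against 7.06% of all genes. The 5 that rose were among them. With the macrophage covariate none was past the threshold, Larp1 and Eef2k being at 0.45 and 0.64 (adjusted p = 0.0651 and 0.068). By role, 3 of 10 regulators of elongation factors, 1 of 14 cap and poly(A) factors and 1 of 10 termination and recycling genes rose. So did 0 of 7 genes of the eIF2 kinases and phosphatase and 0 of 10 mitochondrial translation factors. With 4.41% of all genes higher, lists this short cannot set the roles apart, and differences between roles were not tested. The mitochondrial factors had a median change of -0.03.

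**Figure D4:**
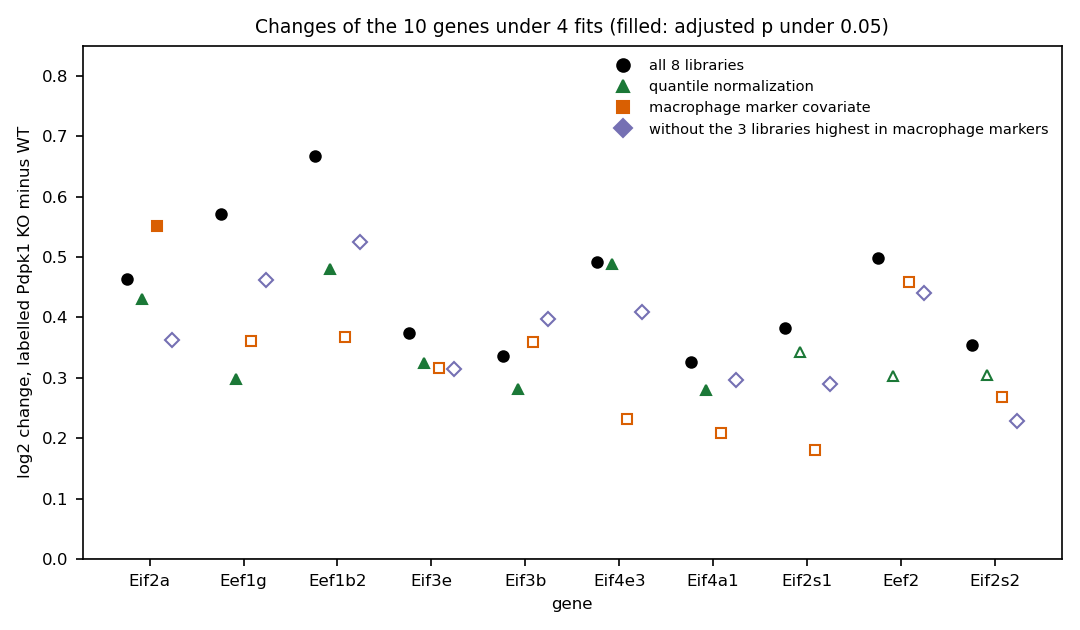
Log2 change (y axis, KO-labelled minus WT) of the 10 genes past the threshold under 4 fits: all 8 libraries, quantile normalization, the macrophage marker covariate, and the 3 marker-rich libraries left out. Filled symbols are past the threshold, 10, 7, 1 and 0 of them in that order, and every change stays above 0.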

How the data were processed

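Polyadenylated RNA of 8 libraries was sequenced. The deposited signal values are reads per gene, scaled per library by the authors with DESeq2, per the name of the table. Per the submitters' processing notes, Trimmomatic 0.39, STAR 2.7.6a, SAMtools 1.11, featureCounts (Subread 2.0.1), DESeq2 1.21 and GRCm38 were used; strand and annotation are not given in the sources used here. In each library 100% of values were whole multiples of the value of 1 read (tolerance 0.001), which gave whole reads. No listed gene had fewer than 11 reads in all.

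Symbols, positions and lengths are from GENCODE M21 (GRCm38), which matched 19775 of 19826 genes. Genes with a normalized count of at least 10 in at least 4 libraries were tested (13847, with 5979 removed). Values were log2(normalized count + 1), fitted with limma 3.58.1 in R 4.3.3 (trend, two-sided, no covariate), and p-values were adjusted by Benjamini-Hochberg (threshold 0.05). Changes are on that scale, which understates low genes. Alternatives were edgeR 4.0.16 and DESeq2 1.42.0 on the recovered reads, a pseudocount of 10, no filter, quantile normalization, a replicate block, a macrophage covariate and left-out libraries. The steps were tested on simulated counts.

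The genes named are every member past the threshold, the 2 most abundant of each complex, and up to 4 other translation genes in each direction. Further genes were named after their values were seen. Members, lists and tests were chosen with earlier results of these data known.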

Additional observations from a re-analysis of the deposited data

Results flagged for a closer look

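Over 66 groups of 4 values tested, of which chance flags about 1 in 20, 1 library stood apart from the rest of its group. Dph5 had 1006 normalized counts in replicate 1 labelled Pdpk1 KO, against 1158 to 1188 in the other three, and that value was still above the highest WT library (924).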

How the results depend on the processing

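The count of 10 translation factor genes higher was 9 with a pseudocount of 10 and 8 without the filter. The share of all genes higher was not taken for these fits. The count was 8 after quantile normalization (with Eef1akmt4 in place of Eef2, Eif2s1 and Eif2s2), 10 in edgeR (with Eef1a1 in place of Eif2s2) and 15 in DESeq2. Shares for these and the fits below are given with the counts in the results. It fell to 1 when macrophage markers entered as a covariate, to 0 when the 3 libraries with most of them were dropped, and ran from 3 to 12 when 1 library was left out. The 5 other translation genes higher became 0 with the covariate (1.54% of all genes higher) and 0 without those 3 libraries (1.21%). Without 1 library they were 4 to 6 (2.81% to 4.25% of all genes higher), and the count lower was 0 to 1 in those fits. The cause was not tested, though the covariate went partly with the groups and the fit without 3 libraries has fewer samples. With the replicate block 27 translation factor genes and 9 other translation genes were higher (8.98% of all genes higher). The labels do not say that the numbers pair libraries. The correlations of deviations between same-numbered libraries were 0.217, 0.0921, 0.0481 and 0.113, all positive. Those between differently numbered libraries ran from -0.156 to 0.109. The highest of these was between WT replicate 3 and KO-labelled replicate 2, above that of the 2 replicates numbered 2. Whether the libraries are paired was not tested. The median change of the members stayed between 0.14 and 0.25 in all fits. The 3 ratios could hardly have passed in any fit, so they say nothing about stability. Of the 10 genes, Eif2a, Eef1g and Eef1b2 kept the call in all 8 fits without 1 library. The smallest change called was 0.33 (log2), so smaller changes may be missed at 4 libraries a group.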

Other observations

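The table also listed 7 processed pseudogenes with Eif symbols, which the rule left out. Eif4a-ps4 had 156 to 236 normalized counts in WT and 189 to 253 in the KO-labelled libraries. The other six were all at or under 19.7 normalized counts in every library, among them Eif3s6-ps1, Eif3s6-ps2 and Eif3s6-ps4, named for an older symbol of Eif3e, whose own values were 8786 or more.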
